A study of Mus musculus with 7 samples.

Results

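The translation initiation factors are the proteins that bring the small ribosomal subunit, the initiator methionyl-tRNA and a capped mRNA together at a start codon. Here they comprise the 51 genes of the deposited table, out of 15815, whose mouse symbol begins with Eif1 to Eif6, leaving out the eIF2 kinases (Eif2ak genes). The name rule used no measured value. It also takes in regulators of the factors, namely the eIF4E binding proteins, and a few relatives with a shared name and another main role, such as Eif4a3 of the exon junction complex.

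In textbook initiation, eIF2 carries the initiator tRNA as a GTP complex and eIF2B recharges it with GTP, while eIF1, eIF1A, eIF3 and eIF5 assemble on the small subunit. The cap-binding protein eIF4E, the scaffold eIF4G and the helicase eIF4A form eIF4F, which recruits the mRNA, and the 4E-BP proteins compete with eIF4G for eIF4E. eIF5B then promotes joining of the large subunit, eIF6 keeps large subunits from joining too early, and eIF5A acts mainly in elongation. In T cells, activation raises protein synthesis, and mTORC1 signalling releases eIF4E from its binding proteins by phosphorylating them.

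The cells were regulatory T cells (Treg) sorted for YFP from mLN of Rag-/- mice, which make no T or B cells of their own. Hosts had received naive T cells and Treg cells, both WT, together with YFP+ Treg cells that were either WT (4 libraries, WT 1 to 4) or Hpgd-deficient (3 libraries, KO 1 to 3), and the YFP+ cells were taken 8 weeks later. The strain is C57BL/6JRcc, and the line is Hpgd fl; Foxp3-YFP-Cre, in which the Foxp3 promoter drives Cre and so limits the deletion to cells that express Foxp3. The line entry is the same for both groups, so the titles alone separate WT from KO, and the ages of the mice are not given in the sources used here. Nothing in the labels says that libraries came from separate hosts, and p-values here measure library spread, which may be technical. Hpgd encodes the enzyme that oxidises prostaglandin E2, and the comparison asks what its loss in Treg cells changes.

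Hpgd itself was at normalized counts of 18.7, 9.96, 10.2 and 13.4 in WT 1 to 4 and at 0.759, 2.42 and 5.52 in KO 1 to 3, which rest on 56 reads in WT and 7 in KO. Every KO library lay below every WT library (exact two-sided permutation p = 0.0286, the smallest that 35 splits allow). The 7 libraries held 4135733 (KO 3) to 10622507 reads (WT 4). A list of 7 Treg markers summed to 35028 to 40683 in WT and 36810 to 40490 in KO. Lists for B cells, for myeloid and dendritic cells, for CD8 T and NK cells and for stromal and endothelial cells lay between 196 and 1863 in every library, with overlapping groups. Erythroid markers (4 of 6 listed ones were analysed here, with Hba.a2 the highest and none at 0 throughout) summed to 491 to 2033 in WT and 62.2 to 199 in KO, without overlap, and their part in the results below was not tested.

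A first set of sequences shows why reads of the closest relatives can still be told apart in most pairs. The X-linked Eif2s3x and the Y-linked Eif2s3y both encode the gamma subunit of eIF2, and their coding sequences are identical at 86.3% of 1419 aligned bases. The helicases Eif4a1 and Eif4a2 are identical at 78.1% of 1221 aligned bases. Below are coding bases 1 to 60 of Eif2s3x and Eif2s3y, which differ at 13 positions, and bases 37 to 96 of Eif4a1 against bases 43 to 102 of Eif4a2, which differ at 11. Capitals mark the differences. The genes lie at chrX:94188707-94212862 (Eif2s3x, minus strand), chrY:1010543-1028847 (Eif2s3y, plus), chr11:69666936-69672423 (Eif4a1, minus) and chr16:23107444-23114136 (Eif4a2, plus) in GRCm38, by GENCODE M21.
Eif2s3x: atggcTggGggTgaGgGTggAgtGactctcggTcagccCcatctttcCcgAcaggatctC
Eif2s3y: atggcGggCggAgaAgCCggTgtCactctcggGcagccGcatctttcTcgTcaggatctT
Eif4a1: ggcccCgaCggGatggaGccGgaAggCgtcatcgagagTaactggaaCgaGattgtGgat
Eif4a2: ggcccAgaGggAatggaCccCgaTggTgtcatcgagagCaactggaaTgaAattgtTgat

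The exception was Eif3j1 and Eif3j2, which encode the loosely bound j subunit of eIF3 and are identical over all 786 aligned coding bases. Their separate values are therefore uncertain wherever they appear below, and their sum is given as well. Identity was lower for Eif1a and Eif1ax (85.5%), Eif1 and Eif1b (81.3%), Eif5a and Eif5a2 (73.2%), Eif4ebp1 and Eif4ebp2 (69.1%), and Eif4g1 and Eif4g3 (66.0%). In addition, 12 of the 51 genes overlap another annotated coding gene, 10 on the opposite strand and 2 on the same strand, and the SmartSeq2 protocol keeps no strand information.

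A second set shows the promoters of the members that deviated most in one WT library, WT 2, described further on. Eif3g and Eif3k encode small eIF3 subunits and were highest there, and Eif5b and Eif3a were lowest. Each stretch runs from 250 bases before to 20 after the annotated start (RefSeq, GRCm38.p6). Capitals mark the E-box CACGTG and the ETS letters CCGGAAG or CTTCCGG. The Eif3g stretch holds CCGGAAG at base -44 and the Eif3k stretch holds CACGTG at base -44, counted from the start. The Eif5b and Eif3a stretches hold neither, although Eif3a has CACGTG at base 23 after the start, past the printed stretch.
Eif3g promoter, chr9:20898571-20898840, minus strand: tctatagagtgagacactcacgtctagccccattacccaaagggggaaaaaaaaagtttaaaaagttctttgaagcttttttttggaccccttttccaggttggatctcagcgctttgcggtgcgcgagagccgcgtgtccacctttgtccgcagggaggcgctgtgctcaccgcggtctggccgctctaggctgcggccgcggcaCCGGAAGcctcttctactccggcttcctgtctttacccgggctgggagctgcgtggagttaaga
Eif3k promoter, chr7:28981869-28982138, minus strand: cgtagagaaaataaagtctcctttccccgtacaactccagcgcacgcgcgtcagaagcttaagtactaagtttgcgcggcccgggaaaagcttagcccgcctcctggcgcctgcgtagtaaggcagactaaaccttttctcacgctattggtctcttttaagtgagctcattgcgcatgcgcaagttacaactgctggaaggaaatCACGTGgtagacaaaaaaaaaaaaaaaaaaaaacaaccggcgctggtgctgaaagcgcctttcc
Eif5b promoter, chr1:37997760-37998029, plus strand: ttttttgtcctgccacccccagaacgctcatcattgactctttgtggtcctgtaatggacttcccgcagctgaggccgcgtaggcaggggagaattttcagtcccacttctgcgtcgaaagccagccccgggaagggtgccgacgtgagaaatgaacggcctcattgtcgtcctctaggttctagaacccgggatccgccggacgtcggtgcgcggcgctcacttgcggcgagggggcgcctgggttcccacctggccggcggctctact
Eif3a promoter, chr19:60790674-60790943, minus strand: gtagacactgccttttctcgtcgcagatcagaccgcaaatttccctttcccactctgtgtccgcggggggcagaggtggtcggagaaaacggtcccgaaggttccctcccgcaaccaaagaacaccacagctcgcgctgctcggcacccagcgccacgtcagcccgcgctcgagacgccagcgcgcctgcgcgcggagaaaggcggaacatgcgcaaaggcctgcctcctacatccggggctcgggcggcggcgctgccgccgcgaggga

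RefSeq promoters were matched for 39 of the 51 genes, with 51 annotated starts, and the whole window of 250 bases before to 50 after each start was searched on both strands. CACGTG lay in 12 starts of 10 genes, among them Eif4e, Eif4g1, Eif4a1, Eif4h and Eif5a. That is 23.5% of the starts, against 7.15% of all 32851 starts in the reference. The ETS letters lay in 18 starts of 15 genes, including Eif2b2, Eif3c, Eif3d and Eif3l, which is 35.3% against 8.86%. TGACGTCA, the full cAMP response element, lay in 0 starts against 1.79% of all starts, and CCAAT or ATTGG lay in 25.5% against 37.4%. The reference starts were not limited to genes expressed here, and a gene with several starts counts once for each. Whether the shares differ from those of genes of like expression was not tested. None of these patterns contains another, and a match of letters is a description of the window only.

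Nearly all of the genes were expressed. By their mean over the 7 libraries, 23 of the 51 had normalized counts of 1000 or more, 25 lay from 100 to 1000, and 3 lay under 100. Together they took 0.935% (WT 3) to 1.03% (KO 3 and WT 2) of all reads. The one gene under the test's minimum mean of 10 was Eif4e1b, an eIF4E relative known from oocytes, with 23 reads in all and means of 2.79 in WT and 4.14 in KO. The least abundant of the tested genes were Eif5a2 and Eif4ebp3.

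Levels between genes were compared as normalized counts per kilobase of the longest principal coding transcript. On that scale Eif5a was highest, with a mean of 3982, followed by Eif1 (3115) and Eif4a1 (2778). The next were the eIF3 subunits Eif3h (1799) and Eif3k (1772), Eif4a2 (1692), Eif3m (1642) and Eif3e (1496). At the low end stood Eif4e1b (1.58), Eif5a2 (17.4), Eif3j1 (40.7, uncertain because of its copy) and Eif4ebp3 (56.6). Within eIF3, the scaffold subunit Eif3a (610.1 per kilobase) lay below Eif3h and Eif3k, though all sit in one complex. Mean levels of Eif3h, Eif3k, Eif4a2 and Eif3m lay closer together than the libraries of each gene did.

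The order depended on the transcript taken as the length. With the median length of the coding transcripts, Eif4e went from 225 to 1417 per kilobase, Eif4g2 from 748 to 1036 and Eif4b from 689 to 983. By the longest transcript Eif4e2 was the highest of the eIF4E genes (488), and by the median length Eif4e was. Eif5a, Eif1 and Eif4a1 were the top 3 by either length.

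**Figure D1:**
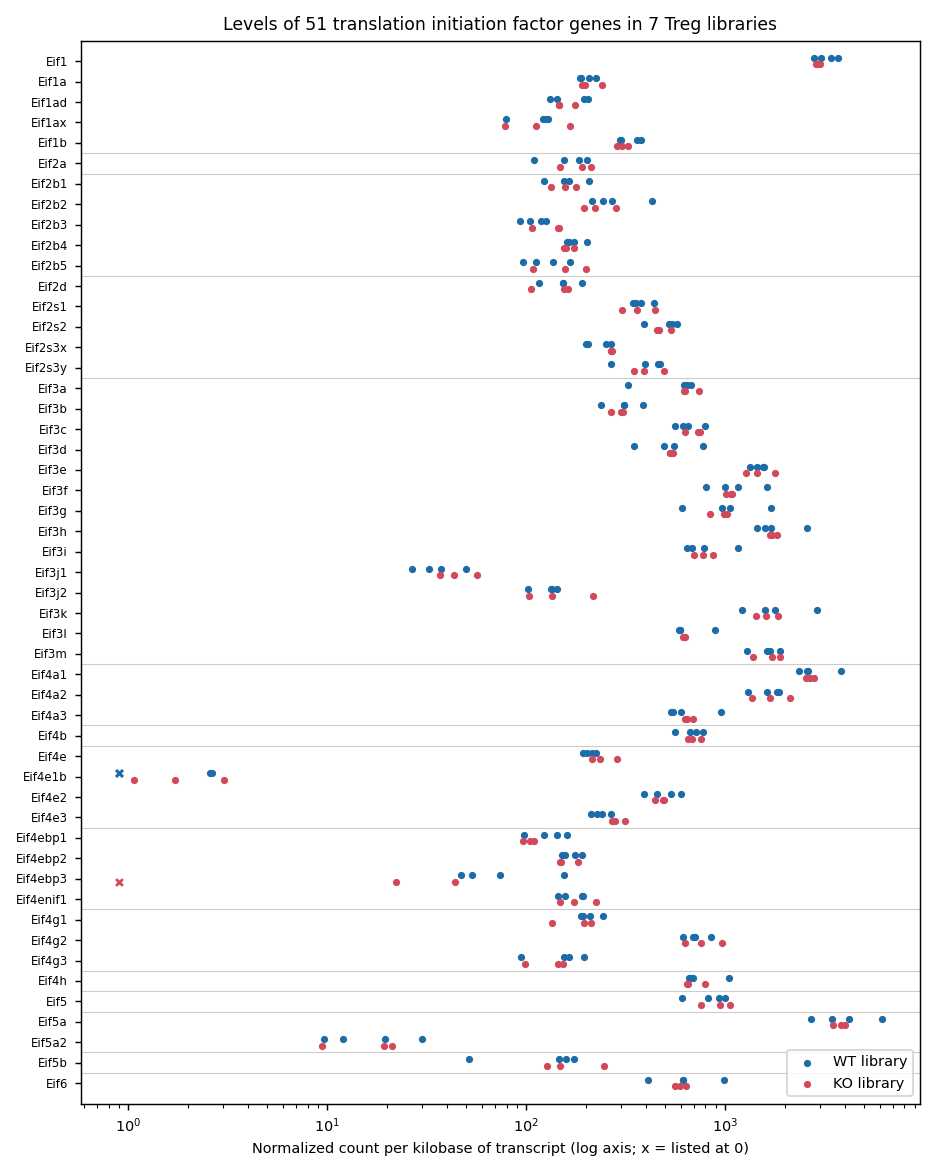
Levels of the 51 genes, grouped by factor. Each point is 1 library (blue, WT, n = 4; red, KO, n = 3), the log axis is the normalized count per kilobase of the longest principal coding transcript, and a cross marks a library listed at 0. WT and KO points intermix in nearly every row, while Eif5a, Eif1 and Eif4a1 lie at the right and Eif4e1b at the far left.

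Between genotypes, the initiation factors differed little. No gene of the 11787 tested passed limma's test at an adjusted p of 0.05 (0%), and so 0 of the 50 tested initiation factors did. The voom method on recovered reads also called 0 genes, and limma with array weights called 4, of which 0 were initiation factors. At an unadjusted p under 0.05 there was 1 of 50, Eif4ebp3, beside 211 genes, or 1.79%, of all tested. WT and KO libraries did not overlap for 2 of 50, Eif4e3 (KO above WT, against 1.71% of all tested genes) and Eif4ebp3 (KO below WT, against 1.93%). In both directions together 3.65% of all tested genes had groups that did not overlap.

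Estimates were higher in KO for 23 (46%) and lower for 27 of the 50, while 51.8% of all tested genes were higher. The median log2 fold change was -0.03, against 0.01 over all tested genes. The split depended on single libraries, with 33 higher and 17 lower without WT 2, and 16 higher and 34 lower without KO 3. Without any other single library, 20 to 25 were higher. The median size of the log2 fold change, regardless of sign, was 0.09 for the initiation factors and 0.21 for all tested genes. One of 50 (2%) had an estimate beyond 0.5 in either direction, against 17.9% of all tested genes. The 95% interval lay within 1 log2 unit of no difference for 47 of 50 (94%), against 56.4%, and the 3 others were Eif4ebp3, Eif5b and Eif5a2. These shares were not set against genes of like expression, so whether they are particular to the initiation factors was not tested. In sorted bulk RNA, fewer cells of a type and less RNA per cell cannot be told apart.

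**Figure D2:**
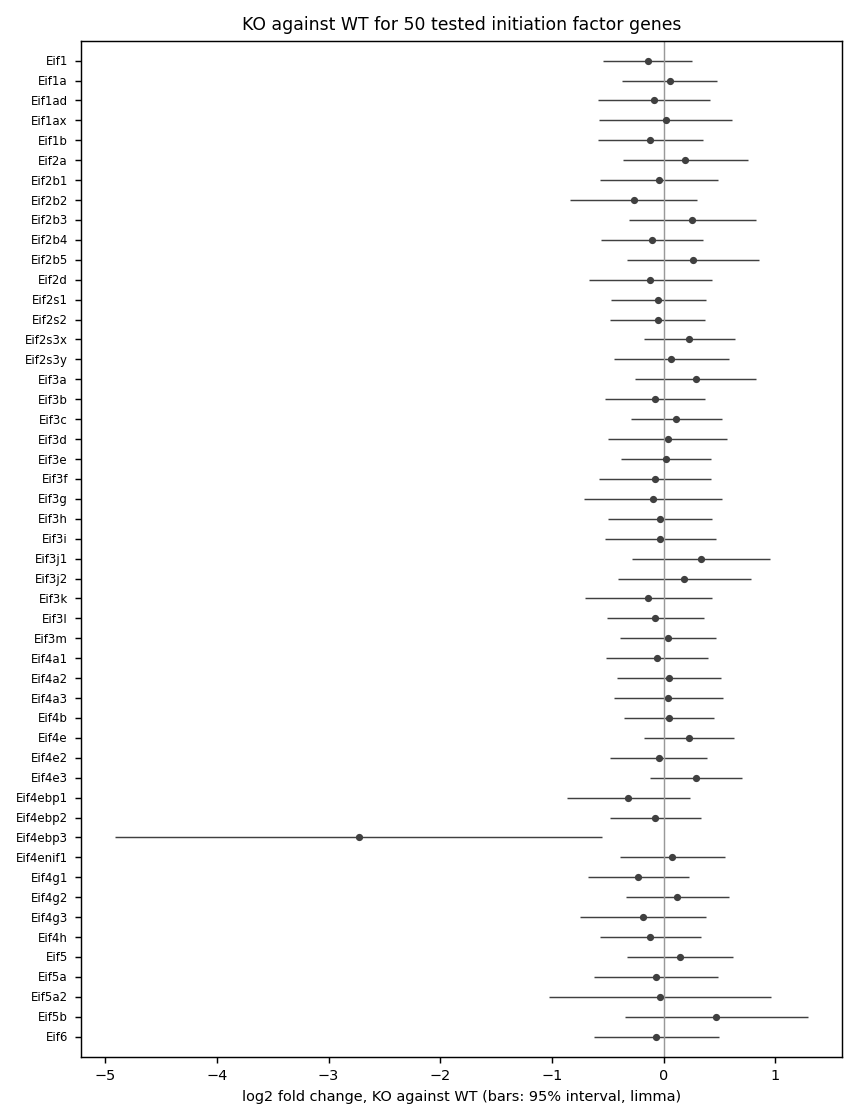
Difference between KO and WT for the 50 tested genes. Points are limma's log2 fold changes and bars their 95% intervals (4 WT and 3 KO libraries). Every interval except that of Eif4ebp3 crosses 0.

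Among the factors that open the scanning complex, Eif1, which guards start codon choice, had normalized counts of 4043, 4916, 3711 and 4544 in WT 1 to 4, against 3782, 3836 and 3996 for KO 1 to 3. The KO values all lay inside the WT range, and the log2 fold change was -0.14 (SE 0.18, adjusted p = 0.9996 in limma). Its relative Eif1b measured 373, 391, 312 and 307 across the WT libraries and 314, 338 and 298 across the KO libraries. Eif1 exceeded Eif1b by 8.49- to 11.6-fold per kilobase in every library. Of the 2 genes for eIF1A, which works beside eIF1 in scanning, Eif1a ranged from 536 to 693 and Eif1ax from 404 to 864. Eif1ad, named for its eIF1A-like domain, ranged from 337 to 522. The 5 genes summed to 6250 ± 674 in WT and 5808 ± 402 in KO (SD, n = 4 and 3).

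In the eIF2 trimer, 1 gene had closely spaced KO libraries. Eif2s3x measured 728, 749.6, 977 and 919 in WT 1 to 4, against 988, 981 and 976 for KO 1 to 3, so that KO 3 lay just under WT 3. Its log2 fold change was 0.23 (SE 0.19, adjusted p = 0.9996 in limma). The alpha subunit Eif2s1, whose phosphorylation stops recycling of the complex, measured 1219.9, 1295, 1177 and 1496 across the WT libraries and 1039, 1229 and 1523 across the KO libraries. Both its highest and its lowest value were in KO libraries. The beta subunit Eif2s2, the highest of the group per kilobase, measured 1384, 999, 1461 and 1338 across the WT libraries and 1157, 1194 and 1361 across the KO libraries.

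Eif2s3y, the copy of the gamma subunit on the Y chromosome, had 491 to 908 in the 7 libraries and was lowest in WT 2. In normalized counts not divided by length, the ratio of Eif2s3x to Eif2s3y was 0.842 to 1.53, with overlapping groups. Per kilobase of the longest transcript, Eif2s3y was the higher in every library, with a mean of 405 against 248 for Eif2s3x. With the median length of its transcripts, Eif2s3x had a mean of 380 per kilobase. The non-canonical Eif2a, which can deliver initiator tRNA without GTP, ranged from 252 to 491 and Eif2d, involved in recycling and reinitiation, from 229.9 to 415. The 6 genes summed to 4878 ± 470.4 in WT and 4971 ± 487 in KO.

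The 5 subunits of the exchange factor eIF2B had mean levels of 120 to 266 per kilobase. Its catalytic subunit Eif2b5 measured 349.8, 425, 248 and 287 in WT 1 to 4, against 401, 277 and 513 for KO 1 to 3. KO 3 was the highest of all libraries and WT 3 the lowest, and the estimate was 0.26 (SE 0.27, adjusted p = 0.9996 in limma). The regulatory subunit Eif2b2, highest per kilobase, measured 436, 688, 346 and 392 across the WT libraries and 454, 359.5 and 316 across the KO libraries, with WT 2 far above the rest. Eif2b1 ranged from 249.9 to 416, Eif2b3 from 145 to 228, and Eif2b4 from 313 to 411. Of the 5 subunits 2 had higher and 3 lower estimates in KO.

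eIF3, the largest factor and the platform for the others, made up 30.3% of the summed normalized count of all 51 genes. Its 14 genes, with Eif3j1 and Eif3j2 counted separately as listed, divided into 7 with higher and 7 with lower estimates in KO, with a median of -0.01. The group summed to 21863, 26865, 18177 and 21313 in WT 1 to 4 and to 21421, 21363 and 23363 in KO. WT 2 and WT 3 marked both ends, and all KO sums lay between them.

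Eif3a, the largest subunit, measured 3312, 1677, 3179 and 3462 in WT 1 to 4, against 3232, 3209 and 3816 for KO 1 to 3. WT 2 stood far below the other 6. The log2 fold change of 0.29 (SE 0.25, adjusted p = 0.9996 in limma) fell to 0.04 without WT 2 and to -0.04 without both WT 2 and KO 3. Eif3h, the highest subunit per kilobase, measured 2201, 3353, 1891 and 2066 across the WT libraries and 2239, 2193 and 2363 across the KO libraries. Here WT 2 was the highest library.

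The 2 genes for the j subunit summed to 464, 446, 593 and 519 in WT and to 483, 522 and 829 in KO, with KO 3 alone above the WT range. As the table lists it, Eif3j1 measured 145, 202, 271 and 177 across the WT libraries and 237, 199.5 and 309 across the KO libraries (limma log2 fold change 0.33 with SE 0.29, adjusted p = 0.9996). Without KO 3 this estimate was 0.16, without WT 1 it was 0.20, and without WT 3 it was 0.49. The other subunits were Eif3b, Eif3c, Eif3d, Eif3e, Eif3f, Eif3g, Eif3i, Eif3k, Eif3l and Eif3m. Each of these had estimates between -0.14 (Eif3k) and 0.11 (Eif3c), and in each WT and KO overlapped.

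The helicase Eif4a1 measured 4628, 6813, 4178 and 4591 in WT 1 to 4, against 4524, 4999.9 and 4761 for KO 1 to 3. Its paralogue Eif4a2 measured 3620.2, 2896, 4041 and 4139.9 across the WT libraries and 3016, 3728 and 4719 across the KO libraries. The pair moved in opposite directions in WT 2, which had the highest Eif4a1 and the lowest Eif4a2. Per kilobase the ratio of Eif4a1 to Eif4a2 was therefore 2.93 in WT 2, beside 1.26 to 1.87 in the other libraries. Genotype gave log2 fold changes of -0.06 (SE 0.21) and 0.05 (SE 0.21, adjusted p = 0.9996 in limma for each). Eif4a3, the exon junction helicase, ranged from 806 to 1447.

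Eif4h, which stimulates the helicase, measured 1571, 2479, 1608 and 1638 across the WT libraries and 1893, 1531 and 1541 across the KO libraries. Eif4b, with a like role, ranged from 2174 to 2984. Their sum was 4448 ± 631 in WT and 4349 ± 154 in KO.

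For the cap-binding genes, the KO to WT ratio of the summed level was 1.11, against 1.04 for eIF4G and 0.985 for eIF4A, with overlapping libraries in each. Eif4e measured 965, 1128, 1009 and 1071 in WT 1 to 4, against 1071, 1180.3 and 1438 for KO 1 to 3. KO 1 lay just under WT 4, and the other KO libraries lay above all WT (limma log2 fold change 0.23 with SE 0.19, adjusted p = 0.9996). Without KO 3 the estimate was 0.11.

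Eif4e3, a cap-binding relative of eIF4E, measured 572, 607, 534 and 672 across the WT libraries and 791, 679 and 708 across the KO libraries. All 3 KO values exceeded all 4 WT values, by the small margin of KO 2 over WT 4. The log2 fold change was 0.29 (SE 0.19, unadjusted p = 0.158, adjusted p = 0.9996 in limma). The gene lies at chr6:99625135-99666771 on the minus strand and overlaps Gm20696, another coding gene on the same strand that is not among the rows analysed here, so the division of reads between them is uncertain. Eif4e2, which represses translation with GIGYF2, measured 971, 1087, 711 and 824 across the WT libraries and 886, 803 and 894 across the KO libraries, without separation.

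The eIF4E binding proteins held the only member with a large estimate. Eif4ebp3 was covered by 50, 44, 102 and 50 reads in WT 1 to 4, but by 43, 0 and 9 in KO 1 to 3, or normalized counts of 55.0, 39.8, 115 and 35.1 against 32.6, 0 and 16.5. The KO values were lower throughout, although KO 1 was close to WT 4, and the 3 reads that a count of 0 allows are worth 2.42 in KO 2.

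For Eif4ebp3 the ratio of the means was 0.267 (KO to WT), and limma's log2 fold change was -2.73 (SE 1.01, 95% interval -4.91 to -0.55, unadjusted p = 0.0180, adjusted p = 0.9996 in limma). Without KO 2 it was -1.20 (unadjusted p = 0.0828), and without WT 3 it was -2.38 (unadjusted p = 0.0526). With 8 in place of 1 added before taking logs it was -1.66, since a value of 0 in KO 2 makes the estimate depend on the amount added. The gene lies at chr18:36664060-36665917 on the plus strand and shares its locus and strand with the coding gene AC115631.1, which is not among the rows analysed here.

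The abundant binding proteins differed less. Eif4ebp1, the main mTORC1 target of the family, measured 245, 320.5, 287 and 195 across the WT libraries and 219, 209 and 193 across the KO libraries, with KO 3 just below the lowest WT value (limma log2 fold change -0.32 with SE 0.25, adjusted p = 0.9996). Its paralogue Eif4ebp2 measured 884, 1103, 1022 and 909 across the WT libraries and 1062, 871 and 859 across the KO libraries. Per kilobase of the longest principal coding transcript, Eif4ebp2 exceeded Eif4ebp1 by 1.19- to 1.67-fold. With the median length, the mean of Eif4ebp2 rose from 166 to 266 per kilobase, and that of Eif4ebp1 stayed at 119.

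The joint level of Eif4ebp1 and Eif4ebp2 per kilobase, divided by that of Eif4e, was 1.43, 1.55, 1.59 and 1.19 in WT and 1.37, 1.08 and 0.851 in KO. KO 1 lay within the WT range, and KO 2 and KO 3 lay below it. The length taken for Eif4e scales this ratio alike in all libraries but sets its size. The lengths taken for the 2 binding proteins set their weights in it. With median lengths, the mean of Eif4e (1417 per kilobase) lay above those of Eif4ebp2 (266) and Eif4ebp1 (119). Eif4enif1, which carries eIF4E into the nucleus, measured 575, 531, 708 and 713 across the WT libraries and 639.8, 545 and 831 across the KO libraries.

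Among the scaffolds, Eif4g1 measured 1188, 1385, 1062 and 1088 in WT 1 to 4, against 1198, 1106 and 761 for KO 1 to 3, and Eif4g3 ranged from 584 (WT 2) to 1199 (WT 1). KO 3 was the lowest library for Eif4g1 and the second lowest for Eif4g3. Eif4g2, a scaffold without an eIF4E binding site that serves cap-independent initiation, measured 5542, 4943, 5673 and 6792 across the WT libraries and 5069, 6086 and 7743 across the KO libraries. Its ratio to Eif4g1 per kilobase was 7.17 in KO 3, beside 2.52 to 4.40 elsewhere. Estimates were -0.23 (Eif4g1), -0.18 (Eif4g3) and 0.12 (Eif4g2).

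At subunit joining, Eif5b was the most variable of the abundant genes. It measured 1247, 402, 1367 and 1141 in WT 1 to 4, against 993, 1158 and 1922 for KO 1 to 3, a 4.78-fold range between WT 2 and KO 3. Its log2 fold change was 0.47 (SE 0.38, adjusted p = 0.9996 in limma), 0.06 without WT 2, 0.19 without KO 3 and -0.22 without both WT 2 and KO 3. Eif5, which makes eIF2 hydrolyse its GTP, measured 3347, 2467, 3769.6 and 4072 across the WT libraries and 3077, 3827 and 4319 across the KO libraries. WT 2 was the lowest library for both genes.

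Eif5a, the carrier of hypusine, measured 4952, 8888, 3915 and 6021 in WT 1 to 4, against 5761, 5507 and 5013 for KO 1 to 3, whereas Eif5a2 ranged from 47.8 to 151. Eif6 measured 925, 1482, 615 and 925 across the WT libraries and 961, 840.2 and 894 across the KO libraries. For both Eif5a and Eif6, WT 2 was highest, WT 3 was lowest and the KO libraries lay between. Their log2 fold changes were -0.07 (SE 0.26) and -0.07 (SE 0.26, adjusted p = 0.9996 in limma for each).

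**Figure D3:**
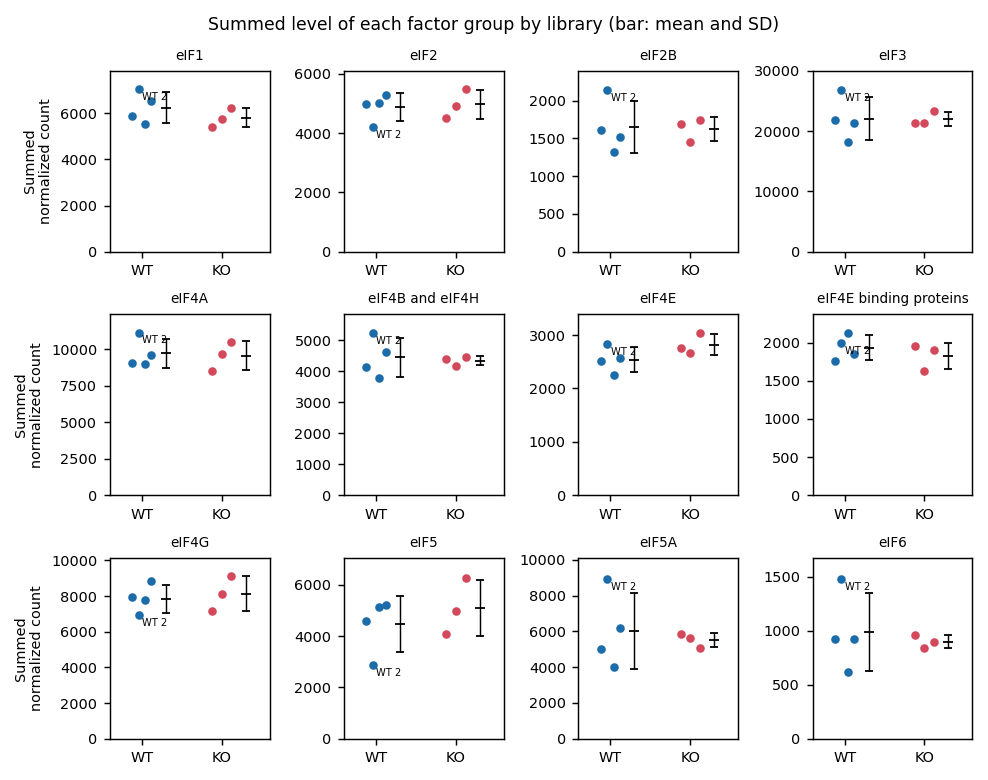
Summed normalized counts of the 12 factor groups in each library (blue, WT, n = 4; red, KO, n = 3), with the mean and SD of each genotype as a bar at the side. WT and KO overlap in all 12, and WT 2 is the highest library in eIF1, eIF2B, eIF3, eIF4A, eIF4B with eIF4H, eIF5A and eIF6 and the lowest in eIF2, eIF4G and eIF5.

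Libraries of one genotype also differed among themselves. WT 2 was the highest library for 25 of the 50 tested genes (50%, against 29.2% of all tested genes). It was the lowest for 11 (22%, against 27.1%). Together it was an extreme for 72%, against 56.3% of all tested genes, and the excess lay at the high end only. WT 3 was the lowest for 21 (42%, against 19.2% of all tested genes) and the highest for 2 (4%, against 16.7%). KO 3 was the highest for 18 (36%, against 21% of all tested genes) and the lowest for 7 (14%, against 20.3%). The median coefficient of variation over the 7 libraries was 17.7% for the tested initiation factors and 27.8% for all tested genes. In 34 of the 50 initiation factors the highest library was less than 2-fold above the lowest, a count not made over all tested genes. Neither value was set against genes of like expression, so whether the small spread is particular to the initiation factors was not tested.

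The deviation of WT 2 from the mean of the other 6 libraries ran with transcript length. Of the 20 initiation factor genes with transcripts up to 2 kb, 19 were higher in WT 2, with a median log2 deviation of 0.60 (0.43 for all tested genes of that length). Of the 19 from 2 to 4 kb, 12 were higher (median 0.08, all genes 0.10), and of the 11 over 4 kb, 4 were higher (median -0.30, all genes -0.31). The largest deviations were 0.92 for Eif3g and 0.90 for Eif3k, and -1.66 for Eif5b and -1.003 for Eif3a, the genes whose promoters are printed above.

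Across genes, Spearman's rho between length and deviation was -0.64 in WT 2 and 0.49 in WT 3 over the 50 initiation factors, and -0.37 and 0.29 over 11034 tested genes with a length. These are descriptions within single libraries, whose genes share the library's depth and amplification. Ribosomal protein genes took 7.79% of reads in WT 2, against 4.51% to 5.68% in the other libraries, and mitochondrial genes took 1.84%, against 3.23% to 4.56%. The part of these shares in the deviation of WT 2 was not tested.

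**Figure D4:**
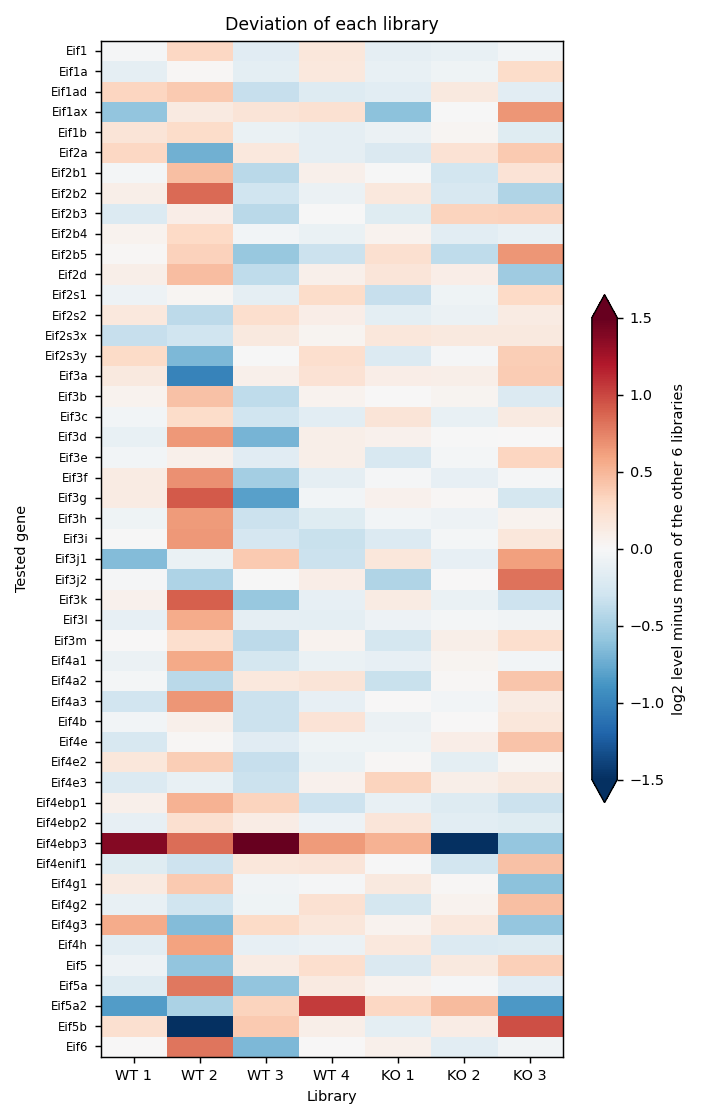
Deviation of each library from the mean of the other 6 for the 50 tested genes, as log2 units (red above, blue below; colours saturate at 1.5). The WT 2 column holds strong colours of both signs, with Eif3g and Eif3k above and Eif5b and Eif3a below, and colours saturate for Eif5b in WT 2 and in the row of the low-count gene Eif4ebp3.

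**Figure D5:**
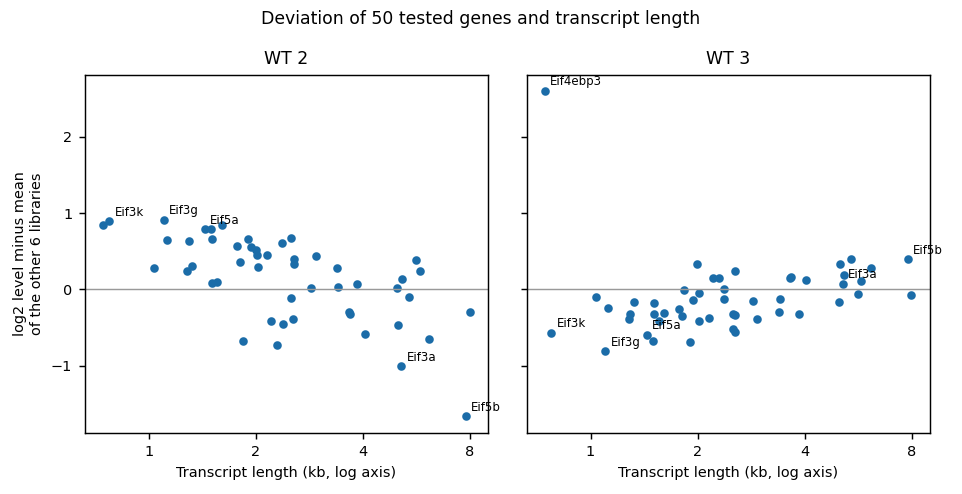
Deviation of WT 2 (left) and WT 3 (right) against transcript length in kilobases on a log axis, 1 point per tested gene (n = 50). In WT 2 short transcripts lie above 0 and long ones below, with the opposite tilt in WT 3, where the point at the top left is Eif4ebp3.

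Beyond the factors, none of 6 lists of related genes held a gene that passed in either direction. WT and KO did not overlap for 3 of the 98 listed genes tested (3.06%, against 3.65% of all tested genes). Of 12 tested eIF2 kinases, phosphatase subunits and their regulators, 10 estimates lay above 0 (higher in KO) and 2 below, and the median was 0.08. Over all tested genes, 51.8% of estimates were higher in KO. The list pools genes that raise and genes that lower the phosphorylation of eIF2 alpha, so the split gives no direction for it. The smallest p-values there belonged to Eif2ak3, the kinase of the unfolded protein response (log2 fold change 0.35, SE 0.31), and Ppp1r15b, the constitutive phosphatase subunit (0.19, SE 0.18).

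Of 22 integrated stress response targets, 12 were higher and 10 lower, with a median of 0.03. Ddit4, an inhibitor of mTORC1, measured 277, 509, 333 and 271 across the WT libraries and 267, 198 and 270.3 across the KO libraries. KO 1 and KO 3 lay just below the lowest WT value and KO 2 further below (limma log2 fold change -0.47 with SE 0.27, unadjusted p = 0.111, adjusted p = 0.9996). Phgdh, which opens serine synthesis, had an estimate of -0.30 (SE 0.23).

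Of 21 genes of mTORC1 and eIF4F control, 9 were higher and 12 lower, with a median of -0.01. Rps6ka3, a kinase of the MAP kinase pathway, had an estimate of 0.43 (SE 0.23) and Tsc2, a brake on mTORC1, had -0.41 (SE 0.28). Tbc1d7, a partner of Tsc1 and Tsc2 that was singled out after its values were seen, measured 84.7, 84.2, 50.9 and 70.3 across the WT libraries and 49.3, 49.3 and 47.8 across the KO libraries, so all KO values were lower (-0.53, SE 0.38, adjusted p = 0.9996 in limma).

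Of 17 mRNA recruitment and scanning partners, 10 were higher and 7 lower, with a median of 0.05. Abcf1 had -0.25 (SE 0.20). Paip2b, which binds the poly(A)-binding protein, measured 513, 477, 539 and 492 across the WT libraries and 581, 595 and 581 across the KO libraries, the KO values being higher throughout (0.21, SE 0.19, adjusted p = 0.9996 in limma).

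Of 16 elongation factors and their modifiers, 3 were higher and 13 lower, with a median of -0.09, while 51.8% of all tested genes were higher. Among the 13, WT 2 was the highest library for Tufm, Dohh, Eef1d, Dhps, Dph1, Eef1b2, Eef1g, Eef1a1 and Eef2. It was not the highest for Gfm2, Dph2, Eef2k and Eef1e1. Whether the split holds without WT 2 was not tested. Gfm1, a mitochondrial elongation factor, measured 171, 176, 179 and 259 across the WT libraries and 253, 315 and 482 across the KO libraries (limma log2 fold change 0.80 with SE 0.28, unadjusted p = 0.0143, adjusted p = 0.9996). Only KO 1 lay below the highest WT value. Tufm, another mitochondrial elongation factor, had an estimate of -0.36 (SE 0.27). Of 10 termination and recycling genes, 7 were higher and 3 lower, with a median of 0.14, and the smallest p-values belonged to Mtrf1 (-0.71, SE 0.48) and N6amt1 (0.41, SE 0.35).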

How the data were processed

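The labels' protocols state that SmartSeq2 cDNA, which has no molecular identifiers, was made from 10 ng of RNA. Tools in the submitters' processing notes are kallisto 0.44, CASAVA 1.8, DESeq2, Partek 6.6 and R 3.3.1, with mm10 as build and no role or order. The deposited signal is reads divided by a size factor, plus 1, since subtracting 1 left whole numbers of reads times a constant of each library (tolerance 0.01 of a read). Normalized counts are deposited values less 1. Limits from reads cover counting error only.

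limma 3.58.1 (R 4.3.3, trended eBayes, no covariate) was run on log2(normalized count + 1) of all 7 libraries for the 11787 genes with a mean of at least 10, adjusted by Benjamini-Hochberg at 0.05. It was also run on simulated counts, with planted changes larger than nearly all estimates given here and without library-wide shifts. That run therefore says nothing about changes as small as those here, or about libraries such as WT 2. The added 1 shrinks changes of low genes, but a library at 0 can enlarge them, as in Eif4ebp3. No 2 libraries agreed within sampling noise. Lengths and coordinates of all 51 genes come from GENCODE M21 (GRCm38, which mm10 is built on), and alignments were made with Biopython 1.88. Values per library are given for the top gene of each factor group per kilobase, the 8 smallest p-values, genes whose groups do not overlap, and a fixed set of core factors and paralogues, and from each list of related genes the 2 smallest p-values are named. The genes, lists and tests were chosen with earlier results of these data known. Tried in addition were 2 pseudocounts, 2 filters, 2 scalings, an untrended prior, array weights, voom on recovered reads, a replicate block and fits with libraries left out.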

Additional observations from a re-analysis of the deposited data

Results flagged for a closer look

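In 6 initiation factor genes, 1 of the 4 WT libraries lay far from the other 3, by Dixon's criterion at 95%. In WT 2, normalized counts were high for Eif3l (1742, others 1143 to 1163), Eif4a1 (6813, others 4178 to 4628), Eif4a3 (1447, others 806 to 908) and Eif4h (2479, others 1571 to 1638), and low for Eif3a (1677, others 3179 to 3462). In WT 1, Eif1ax was low (410.3, others 631 to 670). Chance flags about 1 in 20 groups, and 63 genes and group sums were examined. The 5 genes set apart in WT 2 come from a single library and are not independent of each other.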

How the results depend on the processing

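No initiation factor passed in any of 18 alternatives. Over all tested genes, the number that passed was 4 with array weights, 3 with the replicate block, 4 without both WT 2 and KO 3, and 0 in the other settings (0 to 0 when single libraries were left out). The number at an unadjusted p under 0.05 ranged from 112 to 363 when single libraries were left out. The median log2 fold change of the initiation factors ranged from -0.08 to 0.06 when single libraries were left out, turning positive without WT 2 (0.06) and without KO 1 (0.004), and was 0.04 without both WT 2 and KO 3. Without those 2 libraries Eif5b turned to -0.22 and Eif3a to -0.042. With single libraries left out, Eif5b ranged from 0.06 to 0.66, Eif3a from 0.04 to 0.39, Eif4e from 0.11 to 0.32 and Eif3j1 from 0.16 to 0.49. With array weights Eif5b was 0.03, Eif3a 0.03 and Eif4ebp1 -0.15. Eif4ebp3 ranged from -3.73 to -1.20 when single libraries were left out, was -1.66 with a pseudocount of 8, and it fell below a filter at a mean of 50. The cause of these changes was not tested. Same-numbered WT and KO libraries correlated at 0.01, -0.04 and 0.09 in their deviations from the group means, so the numbers were not treated as pairs. With the replicate block, Eif4ebp3 was at -2.94 (unadjusted p = 0.00271, adjusted p = 0.9995 in limma). WT 4 has no KO library of its number, so it did not enter that estimate. Leaving WT 4 out without a block also gave -2.94 (unadjusted p = 0.0225 in limma). The smaller p-value with the block rests on pairing by these numbers. The count-model tests and the TMM scaling of the plan were not run, and voom was the only test run on reads recovered after the offset of 1 was taken off. Depth limits Eif4e1b, Eif4ebp3 and Eif5a2, with 23, 298 and 700 reads in all.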
